A study of Arabidopsis thaliana with 14 samples.

Results

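Replicate 4 of the WRKY75 lines N2102362 and N2102363 was compared with replicates 1 to 3 of the same lines, which set 2 RNA-seq libraries against 6 of the 14 libraries in the series. The members were chosen by label and not by any measured value: in both lines the submitters' own name for the replicate 4 data carries a date, and the names for the other 12 libraries carry none. The names of all 8 line libraries also hold the word combined, which the labels do not explain, and those of Col-0 do not. All libraries came from whole rosettes of Arabidopsis thaliana plants 3 weeks old, 5 rosettes to a pool. The 8 line libraries carried a WRKY75 overexpression genotype in which the hormone estradiol switches the transgene on, and they were harvested 3 h after a spray of 50 µM estradiol with 0.001% of the wetting agent Silwet-L77. Wild-type Col-0, used here as a second reference, received the same estradiol spray or water with the wetting agent (3 libraries each). Col-0 has no replicate 4, and no library of a line sprayed with water was used here. The labels give neither the promoter behind the induction nor the number of transformants behind each line. The design text counts 4 biological replicates per line while the RNA protocol names 3. The labels do not say what the date refers to, nor at which hour of the 12 h light and 12 h dark cycle any library was harvested.

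The circadian clock of plants is a loop of transcription factors that repress or activate each other over the day. In Arabidopsis the related MYB factors CCA1 and LHY are most abundant around dawn and repress genes that peak towards evening, among them TOC1 and the genes of the ELF3, ELF4 and LUX complex. The loop drives daily rhythms in photosynthesis, starch metabolism, cold response and defence in leaves, so many leaf transcripts change in level with the hour. WRKY75 is a WRKY-family transcription factor known for roles in leaf senescence, phosphate starvation and defence.

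Over both lines, 5 of 12 dawn-phased clock genes were called higher in replicate 4 than in replicates 1 to 3, and 8 of 12 evening-phased ones were called lower. Of genes for photosystem proteins and Rubisco 11 of 20 were called higher, of chlorophyll synthesis 7 of 9 and of starch synthesis 6 of 12. Called lower were 4 of 18 genes of salicylic acid and immunity, 5 of 15 of indole glucosinolates and camalexin and 5 of 12 of leaf senescence. The gene lists were chosen with earlier results of these data known, so these counts describe the lists and test nothing. Of 19657 genes tested, 1318 were called higher in replicate 4 (6.7%) and 1183 lower (6.02%). A gene was called when its p from edgeR's quasi-likelihood test, with line as a covariate and Benjamini-Hochberg adjustment over all genes tested, was under 0.05. Most of these differences were moderate: the median absolute log2 difference of called genes was 0.63, and 178 higher and 310 lower genes differed by at least 1 on the log2 scale. The median log2 difference over all genes tested was -0.0048. Both replicate 4 libraries lay above all 6 others for 3232 genes (16.4%) and below all 6 for 3354 genes (17.1%). This held for 1304 of the 1318 genes called higher and 1173 of the 1183 called lower. With Col-0 included, both lay above all 12 other libraries for 1207 of the genes called higher (2567 of all tested). They lay below all 12 for 1064 of the genes called lower (2504 of all tested). A lack of overlap between the groups therefore adds little to a call.

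These calls rested on both replicate 4 libraries together. Without replicate 4 of N2102362 0 genes were called in either direction (2055 had an unadjusted p under 0.05), and without replicate 4 of N2102363 230 were called higher and 170 lower. The calls moved with other libraries as well, to 607 higher and 591 lower without N2102362 replicate 3, 865 and 760 without N2102363 replicate 1, 568 and 553 without N2102363 replicate 2, and 1981 and 1879 without N2102363 replicate 3. The 8 libraries carry 4 replicate numbers, of which replicate 4 is 1. With all 14 libraries in the fit 410 genes were called higher and 504 lower. With the replicate number as a block 2081 genes were called higher and 1707 lower, but such a fit takes the spread between numbers out of the error. When the counts of both lines were summed by replicate number, which leaves 1 sum against 3, 0 genes were called while 4261 had an unadjusted p under 0.05. The adjusted p-values below therefore measure the spread among these libraries and not the spread among separate occasions, and none of the calls named below was kept without N2102362 replicate 4 or in the summed fit.

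**Figure D1:**
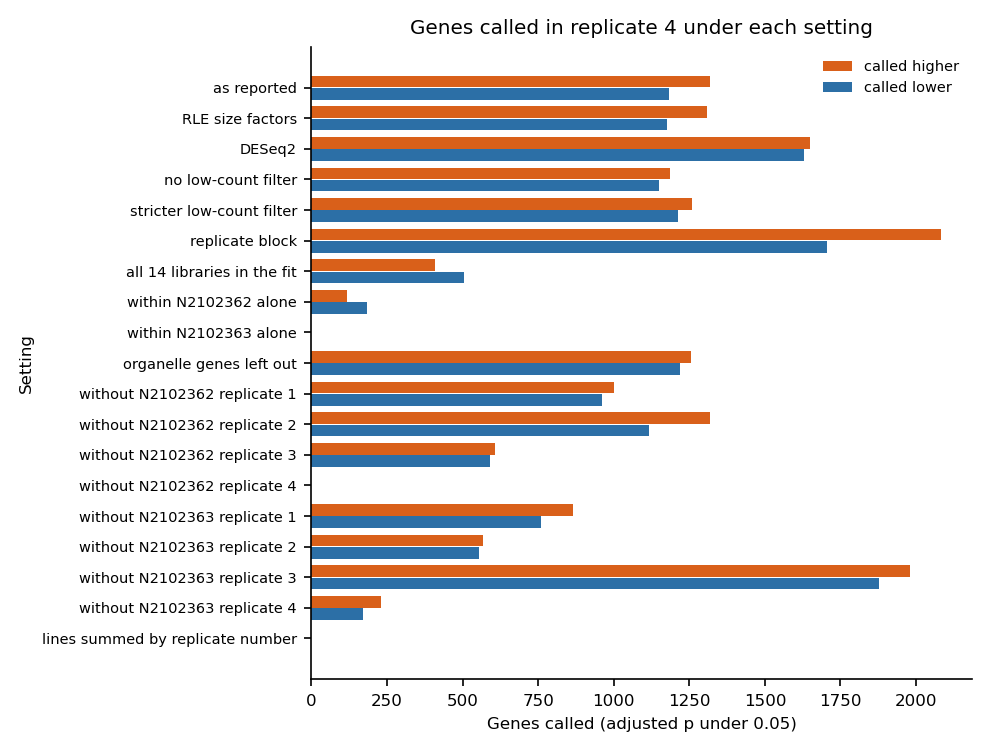
Horizontal bars give the number of genes called higher (orange) and lower (blue) in replicate 4, at an adjusted p under 0.05, as reported (1318 and 1183) and under each other setting. No bar is seen within N2102363 alone, without N2102362 replicate 4 and with the lines summed by replicate number, where 0 genes were called.

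Total counts were close in the 14 libraries, 20456036 to 22605970, and 1 CPM (a count scaled to library size with TMM factors over all 14 libraries) corresponded to 18.97 to 22.83 counts. On the first principal component of the 8 line libraries, which held 44.9% of the variance, replicate 4 stood at 51.1 (N2102362) and 40.8 (N2102363), replicate 3 of N2102363 at 15.5 and the other 5 between -39.9 and -14.7. The 2 replicate 4 libraries were the most alike of all pairs, with a correlation of log2 CPM of 0.992 and a chi-square per degree of freedom of 6.39, against correlations of 0.957 to 0.984 between replicate 4 and replicates 1 to 3. The 10 most abundant genes took 7.53% and 6.89% of the counts in replicate 4 and 5.22% to 6.01% in the other line libraries; the part of this share in the results was not tested. Chloroplast genes took 0.0285% to 0.0444% of counts in the line libraries, and 0 of 67 chloroplast and 0 of 21 mitochondrial genes tested were called.

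The targeted gene was checked first. WRKY75 (AT5G13080, chromosome 5, 4149740 to 4151150, minus strand, TAIR10) was at 29.5, 30.7 and 28.2 CPM in replicates 1 to 3 of N2102362 and at 82 CPM in replicate 4. In N2102363 it was at 76.4, 146 and 116 CPM in replicates 1 to 3 and 167 CPM in replicate 4. Each line's replicate 4 was its highest library, but N2102362 replicate 4 lay within the range of N2102363 replicates 1 to 3, and all 8 line libraries lay above the 0.43 to 2.69 CPM of Col-0. The replicate 4 difference was 1.05 ± 0.25 (log2, SE) with an adjusted p of 0.034. A two-sided exact permutation test within the lines gave p = 0.0625, the smallest its 16 arrangements allow. Within N2102362 alone the log2 difference was 1.48 (adjusted p = 0.0338) and within N2102363 alone 0.58 (adjusted p = 0.651). The call did not hold without N2102362 replicate 1 (adjusted p = 0.0636), 2 (0.075), 3 (0.0716) or 4 (0.545), or without N2102363 replicate 4 (0.0514). The range of the adjusted p over all alternatives was 0.000443 to 0.651.

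The difference had the same direction in both lines for most genes. Of all genes tested, 77.3% had the same sign in both lines, and the differences in N2102362 and N2102363, which share no library, had a correlation of 0.732 across genes; genes are not independent replicates. The spread was larger in N2102362, with an SD across genes of 0.57 against 0.41 in N2102363 on the log2 scale. A test of whether the replicate 4 difference depended on the line called 0 of 19657 genes (0%), with 210 at an unadjusted p under 0.05 in edgeR, and 0 called and 109 at that p in DESeq2. With 1 replicate 4 library per line this test has few degrees of freedom, and it does not show that the lines acted alike.

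**Figure D2:**
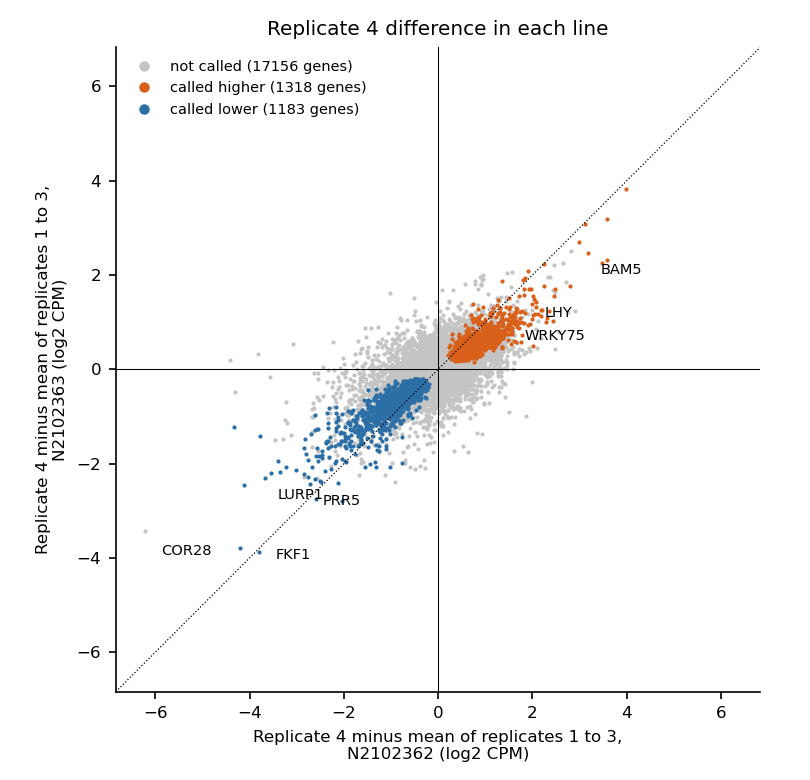
Each point is 1 of the 19657 genes tested, placed by its log2 CPM in replicate 4 minus the mean of replicates 1 to 3 in N2102362 (x axis) and in N2102363 (y axis); orange genes were called higher, blue genes lower, and the dotted line marks equal differences. The cloud runs along the diagonal and is wider in N2102362, with FKF1 and COR28 at the lower left and BAM5 at the upper right.

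Of 12 dawn-phased clock genes, 5 were called higher in replicate 4 and 0 lower, against 6.7% and 6.02% of all genes, and the median log2 difference of the list was 0.59. LHY, a MYB repressor at the centre of the loop, was at 5.57, 6.05 and 5.29 CPM in replicates 1 to 3 of N2102362 and 22.7 CPM in replicate 4, and at 7.75, 6.15 and 6.16 CPM in N2102363 against 19.6 CPM. Both replicate 4 libraries thus stood above every other line library and above the 3.2 to 7.0 CPM of Col-0. LHY differed from replicates 1 to 3 by 1.79 ± 0.14 on the log2 scale (adjusted p = 0.00647). Its partner CCA1 stood at 84.4 and 69 CPM in replicate 4 against 23.4 to 41.5 CPM in the other 6, a log2 difference of 1.29 ± 0.19 (adjusted p = 0.00945). RVE1, a related MYB factor that links the clock to auxin synthesis, reached 35.8 and 31.5 CPM against 8.26 to 18.4 CPM (1.45 ± 0.26, adjusted p = 0.0162). RVE8, a MYB activator of evening genes, reached 25.5 and 22.9 CPM against 11 to 19.9 CPM (0.74 ± 0.19, adjusted p = 0.0407), and LNK2, a coactivator that works with RVE8, reached 798 and 705 CPM against 335 to 488 CPM (0.88 ± 0.13, adjusted p = 0.00817). In none of these 5 genes did the groups overlap, as in 1304 of all 1318 genes called higher. Among the 7 members not called, PRR9, a pseudo-response regulator of the morning, stood at 33.1 and 31.2 CPM against 14.9 to 25.6 CPM (adjusted p = 0.0576), and PRR7 at 403 and 405 CPM, inside the 384 to 573 CPM of the others. With the replicate block 9 of the 12 were called higher, without N2102363 replicate 4 it was 3, and within N2102363 alone 0.

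Of 12 evening-phased clock genes, 8 were called lower and 1 higher, with a median log2 difference of -0.95. Their summed level was 277 and 294 CPM in replicate 4 and 418 to 503 CPM in the other line libraries. PRR5, a pseudo-response regulator that represses CCA1 and LHY, was at 91.1, 47.6 and 45 CPM in replicates 1 to 3 of N2102362 and 8.73 CPM in replicate 4, and at 78, 70.1 and 44.6 CPM against 11.4 CPM in N2102363. That put both replicate 4 libraries below all 12 others, since Col-0 ran from 31 to 115 CPM, as in 1064 of the 1183 genes called lower. The log2 difference of PRR5 from replicates 1 to 3 was -2.64 ± 0.38 (adjusted p = 0.0102). PRR3, a relative that protects TOC1 from degradation, fell from 7.38 to 12.3 CPM to 1.64 and 1.55 CPM (-2.52 ± 0.23, adjusted p = 0.00771). FKF1, a blue-light receptor and F-box protein of the photoperiod pathway, was at 12.2, 3.07 and 4.49 CPM and 6.62, 6.41 and 4.46 CPM in replicates 1 to 3 of the lines and at 0.308 and 0.3 CPM in replicate 4, which is 6 reads in each library (-4.32 ± 0.76, adjusted p = 0.0152). ELF4, a subunit of the evening complex, had 1 read in each replicate 4 library and 0.609 to 1.16 CPM in the others. The ratio of the summed CPM-scaled counts was 5.95% with an exact Poisson interval (95%) of 0.711% to 22%, which covers counting error only. In replicate 4 both FKF1 and ELF4 were under the filter's minimum count of 10. They passed the low-count filter only through replicates 1 to 3, where they were high, so their calls add no support. With a stricter low-count filter 10 genes of this list were tested, of which 7 were called lower and 1 higher. GI, a partner of FKF1, stood at 58.9 and 67.6 CPM against a narrow 114 to 127 CPM (-0.94 ± 0.09, adjusted p = 0.00771). TOC1, the evening repressor of CCA1 and LHY, stood at 28.5 and 27.1 CPM against 44.5 to 64.8 CPM (-0.98 ± 0.13, adjusted p = 0.00782), and ELF3, the scaffold of the evening complex, at 33.4 and 40.6 CPM against 52.2 to 55.5 CPM (-0.54 ± 0.08, adjusted p = 0.00807). The remaining pair of called members, named after their values were seen, was LUX, the DNA-binding subunit of that complex (log2 difference -0.96 ± 0.17, adjusted p = 0.0122), and CHE, a TCP repressor of CCA1 and the 1 member called higher (0.39 ± 0.11, adjusted p = 0.0495). ZTL and LKP2, relatives of FKF1, stood inside the range of the other libraries, with log2 differences of 0.01 and -0.03. Without N2102363 replicate 4, 3 of the 12 were called lower, and within N2102363 alone 0.

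**Figure D3:**
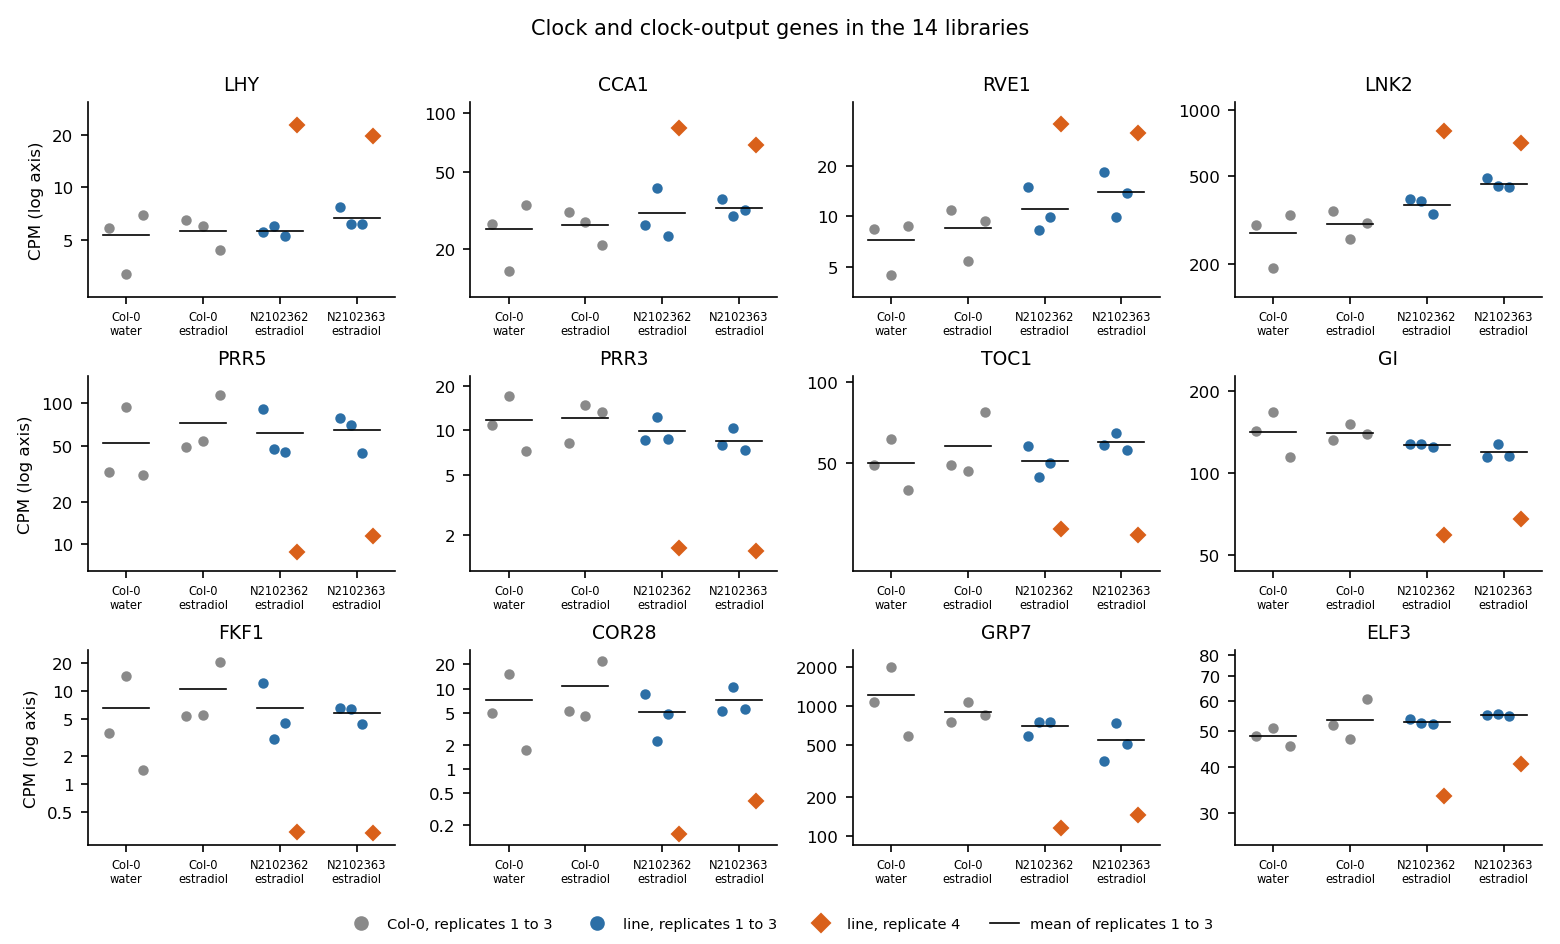
Points give the CPM (log axis, a separate scale per panel) of 12 clock and clock-output genes in each of the 14 libraries, by group; grey and blue circles are replicates 1 to 3 of Col-0 and of the lines, orange diamonds are replicate 4, and black lines are means of replicates 1 to 3. In the top row replicate 4 lies above the other libraries, as LHY does at 22.7 and 19.6 CPM, and in the other 2 rows it lies below them.

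Of 13 genes under clock control 3 were called higher and 3 lower, against 6.7% and 6.02% of all genes. The median log2 difference of the list was 0.22. COR28, a clock repressor that also answers to cold, was at 8.48, 2.21 and 4.82 CPM and 5.3, 10.6 and 5.63 CPM in replicates 1 to 3 of N2102362 and N2102363, and at 0.154 and 0.4 CPM in replicate 4, from 3 and 8 reads. Its log2 difference of -4.45 ± 0.77 (adjusted p = 0.0144) was the largest of any gene that met the naming rule. COR28 passed the low-count filter only through replicates 1 to 3, where it was high, so its call adds no support. GRP7, an RNA-binding protein with an evening peak, dropped to 115 and 146 CPM against 589, 758 and 762 CPM and 381, 742 and 515 CPM (-2.22 ± 0.29, adjusted p = 0.00807), and its paralog GRP8 to 119 and 133 CPM against 178 to 330.4 CPM (-1.0 ± 0.23, adjusted p = 0.0277). On the other side, CDF1, a DOF repressor of flowering that FKF1 degrades, stood at 32.1 and 30.8 CPM against 11.3 to 20.8 CPM (0.88 ± 0.16, adjusted p = 0.0152). The peroxisomal catalase CAT2 stood at 1426 and 1196 CPM against 446 to 827 CPM (0.91 ± 0.21, adjusted p = 0.0252), and BBX19, a B-box zinc finger protein, at 7.86 and 6.81 CPM against 3.14 to 5.61 CPM (0.75 ± 0.20, adjusted p = 0.0445). CAT3, known for an evening peak, was not called, at 3947 and 3988 CPM against 4243 to 8265 CPM (adjusted p = 0.0787). Without N2102363 replicate 2, 1 output was called higher; without N2102363 replicate 3, and with DESeq2, 5 were called lower; without N2102363 replicate 4, and with all 14 libraries in the fit, 0 were called higher and 1 lower.

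The bases upstream of these genes were read because clock repressors bind a known motif there. The evening element AAAATATCT is the site of CCA1, LHY and the RVE factors in evening-phased genes, and the G-box CACGTG is bound by bHLH and bZIP factors of light signalling. Within the 300 bases before the gene start in the deposited coordinates, searched on both strands, the evening element stood before 8.03% of genes called lower (95 of 1183), 1.59% of genes called higher (21 of 1317 with a full window) and 2.94% of all 19568 genes tested with such a window. It stood before 3 of the 8 evening genes called lower, 3 of the 3 clock outputs called lower and 0 of the 5 dawn genes called higher. The G-box stood before 8.88% of genes called lower, 15.6% of genes called higher and 9.74% of all, and before each of the 5 dawn genes. The G-boxes of RVE8 and LNK2 and the evening element of the output COR28 lay inside the gene model of RefSeq (TAIR10.1), which begins further upstream. The shorter W-box core TTGAC, which WRKY factors bind, stood before 63.8% of genes called lower, 43.7% of genes called higher and 50.6% of all. None of these motifs contains another. A match is a description and not a binding site, and these shares carry no test.

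Of these windows 4 are shown, cut where the RefSeq gene model (TAIR10.1) begins, 5′ to 3′ on the strand of the gene, with the evening element or its reverse complement in capitals, or for LHY the G-box. They are the dawn gene LHY (chr1:37872-38171, minus strand), and the evening-phased genes TOC1 (chr5:24674764-24674962, plus strand), FKF1 (chr1:25508376-25508638, plus strand) and GRP7 (chr2:9266558-9266693, minus strand). The matches begin 80 bases before the deposited start in LHY, 252 in TOC1, 223 in FKF1 (with a further match at 37 inside the RefSeq model, not shown) and 240, 219 and 195 in GRP7 (with 1 more at 50, not shown).
LHY: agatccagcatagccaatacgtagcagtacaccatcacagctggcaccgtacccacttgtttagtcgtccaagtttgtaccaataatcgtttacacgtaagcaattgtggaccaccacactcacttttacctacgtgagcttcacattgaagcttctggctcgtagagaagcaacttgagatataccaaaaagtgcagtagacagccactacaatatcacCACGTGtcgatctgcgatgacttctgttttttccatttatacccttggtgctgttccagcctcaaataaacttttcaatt
TOC1: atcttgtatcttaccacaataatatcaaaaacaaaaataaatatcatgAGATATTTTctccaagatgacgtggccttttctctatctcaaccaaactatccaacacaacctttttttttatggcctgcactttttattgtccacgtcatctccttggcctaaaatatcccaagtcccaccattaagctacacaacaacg
FKF1: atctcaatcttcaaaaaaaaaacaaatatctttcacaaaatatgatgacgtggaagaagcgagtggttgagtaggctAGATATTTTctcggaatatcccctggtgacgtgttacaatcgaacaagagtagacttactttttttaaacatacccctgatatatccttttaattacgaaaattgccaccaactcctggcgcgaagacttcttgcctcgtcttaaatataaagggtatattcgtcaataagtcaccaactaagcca
GRP7: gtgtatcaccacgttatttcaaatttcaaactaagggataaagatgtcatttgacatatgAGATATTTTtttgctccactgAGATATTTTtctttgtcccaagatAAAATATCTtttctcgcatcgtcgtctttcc
The stretches were chosen to show the motifs. PRR5, PRR3, ELF3, ELF4 and GI, which were also called lower, held 0 evening elements in their windows.

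Of 20 nuclear genes for light-harvesting proteins, photosystem subunits and Rubisco, 11 were called higher and 0 lower, with a median log2 difference of 0.56. Their summed level was 106998 and 94818 CPM in replicate 4, above the 56344 to 79247 CPM of the other line libraries and the 49940 to 89515 CPM of Col-0. RBCS1A, a small subunit of Rubisco, was at 6458, 5031 and 5838 CPM and 7246, 6009 and 8220.2 CPM in replicates 1 to 3 of the lines and at 11854 and 10673 CPM in replicate 4 (0.82 ± 0.18, adjusted p = 0.0233). RCA, the Rubisco activase, stood at 10071 and 8594 CPM against 4815 to 6276 CPM (0.78 ± 0.16, adjusted p = 0.0187), and PSBS, the protein that starts the quenching of excess light energy, at 1413 and 1199 CPM against 617 to 919 CPM (0.89 ± 0.16, adjusted p = 0.0131). LHCB1.2, LHCB2.1 and LHCB2.2, light-harvesting proteins of photosystem II, differed by 0.60, 0.61 and 0.65; each has a close copy in the genome of at least 92% identity, so reads may have been shared among copies. The count of 11 became 7 without N2102362 replicate 1, 2 without N2102362 replicate 3 and 3, 2 and 0 without N2102363 replicates 1, 2 and 4. It became 1 with all 14 libraries in the fit and 18 with DESeq2.

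Of 9 chlorophyll synthesis genes 7 were called higher and 0 lower, with a median of 0.71. CHLH, the large subunit of magnesium chelatase, was at 1108, 929 and 1249 CPM and 1065, 1050.1 and 1487 CPM in replicates 1 to 3 and at 2371 and 2029 CPM in replicate 4 (0.95 ± 0.18, adjusted p = 0.0143). GUN4, which activates that enzyme, stood at 249 and 224 CPM against 109.8 to 161 CPM (0.89 ± 0.13, adjusted p = 0.00848), and HEMA1, the first committed enzyme of the pathway, at 682 and 589.6 CPM against 290.4 to 427 CPM (0.81 ± 0.16, adjusted p = 0.017). CHL27, CHLM and CAO, later enzymes of the pathway, differed by 0.77, 0.55 and 0.71. They did not overlap between groups, as in 1304 of all 1318 genes called higher. The members not called were PORA and PORB, protochlorophyllide reductases, at log2 differences of -1.18 (adjusted p = 0.166) and -0.44 (adjusted p = 0.199). Without N2102363 replicate 4, and with all 14 libraries in the fit, 1 of the 9 was called.

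Of 12 genes for starch synthesis 6 were called higher and 0 lower (median 0.50). For starch breakdown 2 of 17 were called higher and 4 lower (median -0.03). The shares over all genes tested were 6.7% higher and 6.02% lower. Among the synthesis genes, ADG1, the small subunit of ADP-glucose pyrophosphorylase, was at 229, 230.4 and 227 CPM and 255, 210.2 and 265 CPM in replicates 1 to 3 and at 392 and 334 CPM in replicate 4 (0.63 ± 0.12, adjusted p = 0.0143). The large subunit APL1, the synthases SS1, SS2 and SS3 and the branching enzyme SBE2.2 differed by 0.57, 0.51, 0.78, 0.64 and 0.49. Their groups did not overlap, as in 1304 of all 1318 genes called higher. On the breakdown side, GWD1, the glucan water dikinase that opens the granule surface, stood at 360 and 365 CPM against 512 to 660.3 CPM (-0.64 ± 0.12, adjusted p = 0.0161), and PWD, which acts after it, at 76.8 and 84 CPM against 109 to 167 CPM (-0.76 ± 0.14, adjusted p = 0.0142). The debranching enzyme ISA3 stood at 24.3 and 25.4 CPM against 39.8 to 63.5 CPM (-1.01 ± 0.15, adjusted p = 0.00817), and the cytosolic phosphorylase PHS2 differed by -0.62 ± 0.17 (adjusted p = 0.044). The 2 members called higher were LSF1, a phosphatase-like protein of the granule (0.75 ± 0.13, adjusted p = 0.0119), and BAM5, a beta-amylase outside the plastid. BAM5 was at 5.76, 4.42 and 3.09 CPM and 10.2, 2.26 and 3.54 CPM in replicates 1 to 3 and at 39.4 and 24.2 CPM in replicate 4 (2.70 ± 0.47, adjusted p = 0.0156), also above the 1.48 to 16.2 CPM of Col-0. Genes of sugar starvation had 0 called members of 12 and a median of -0.12. Without N2102363 replicate 4, 2 synthesis genes were called higher and, of the breakdown genes, 1 higher and 1 lower.

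**Figure D4:**
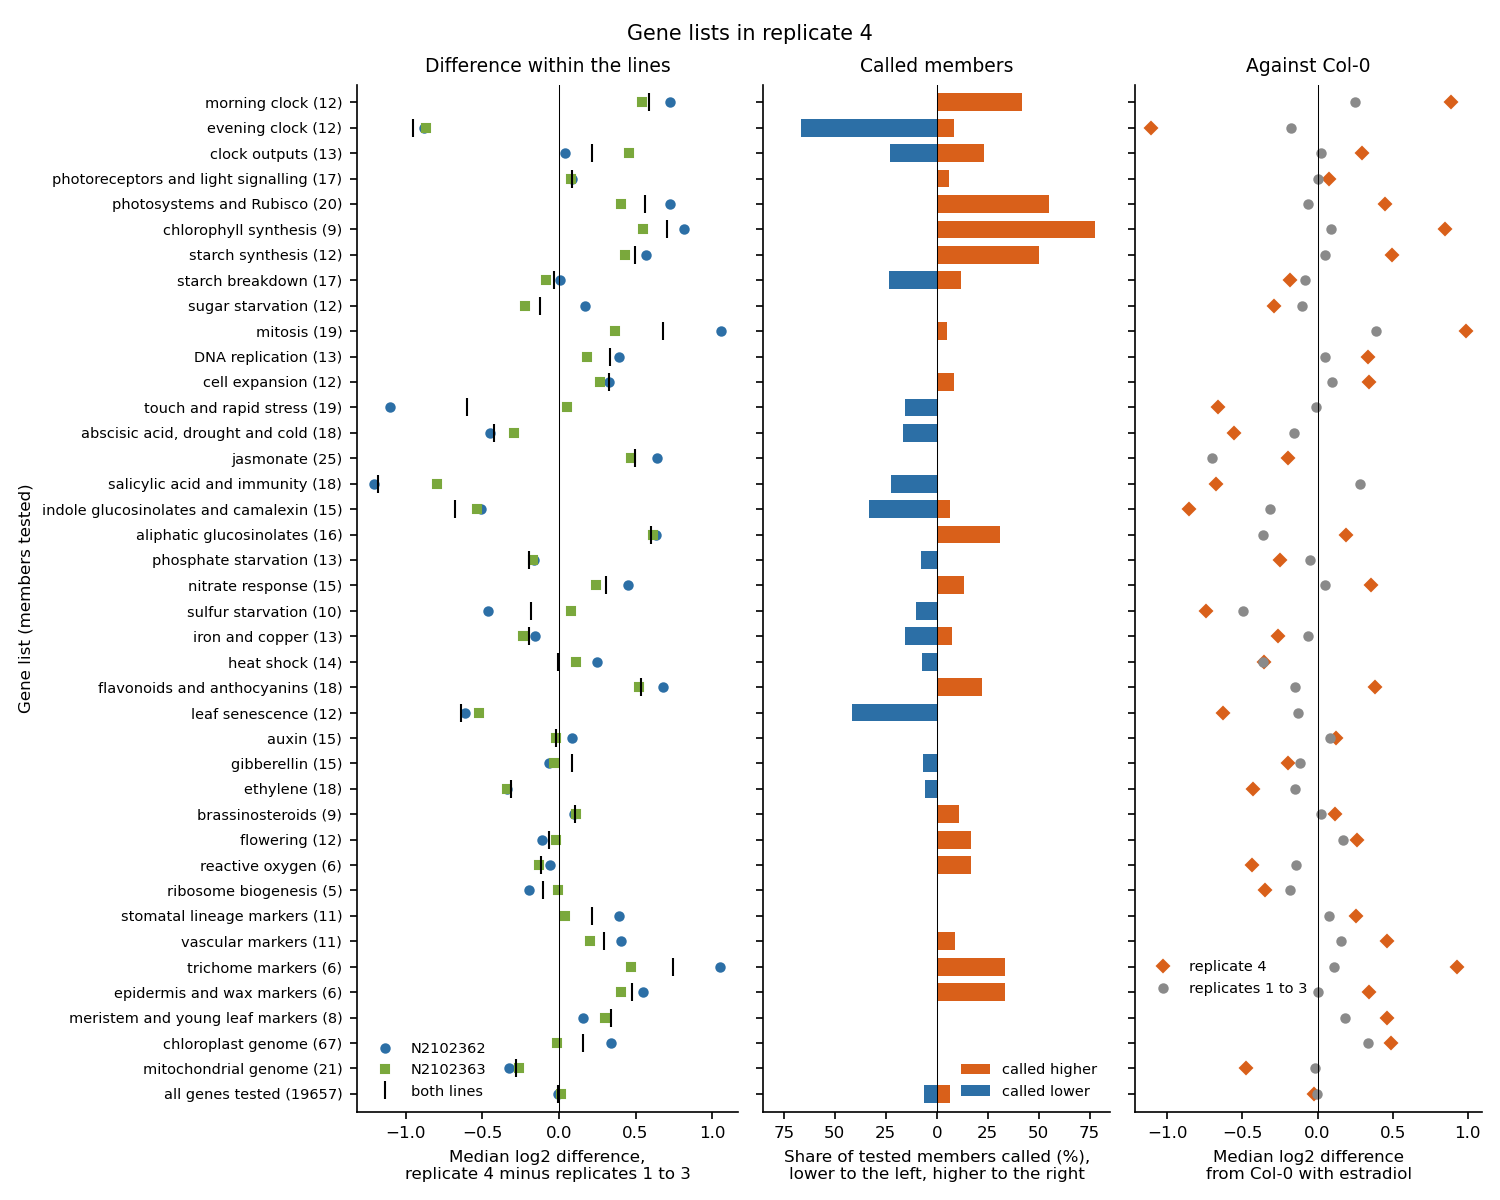
For each gene list with 5 or more tested members (number in brackets) the left panel gives the median log2 difference of replicate 4 from replicates 1 to 3 in each line and over both, the middle panel the share of members called lower and higher, and the right panel the median log2 difference of replicate 4 and of replicates 1 to 3 from Col-0 with estradiol. The chlorophyll list reaches a median of 0.71 and the salicylic acid list -1.18, against about 0 for all genes in the bottom row.

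Salicylic acid and immunity genes all had negative differences, while few single genes passed the test. All 18 tested members had a negative difference, with a median of -1.18, and 4 were called lower (22.2%, against 6.02% of all genes) and 0 higher. ICS1, the enzyme that makes most salicylic acid in infected leaves, was at 42.9, 30.1 and 29 CPM in N2102362 and 50.4, 27 and 32 CPM in N2102363 for replicates 1 to 3, and at 17.2 and 16.2 CPM in replicate 4 (-1.07 ± 0.27, adjusted p = 0.0402). SARD1, an activator of ICS1, was at 21.9, 13.1 and 18.7 CPM and 23.7, 17.1 and 13.9 CPM against 5.54 and 6.0 CPM (-1.64 ± 0.27, adjusted p = 0.0116). In both genes replicate 4 lay below all 12 other libraries, as in 1064 of the 1183 genes called lower. SAG101, a partner of the immune regulator EDS1, differed by -0.70 ± 0.18 (adjusted p = 0.0412). WRKY38, a WRKY repressor of defence, differed by -2.29 ± 0.62 (adjusted p = 0.0447) on 2 and 4 reads in replicate 4. It passed the low-count filter only through replicates 1 to 3, where it was high, so its call adds no support. The marker PR1, an antimicrobial protein, was not called: it stood at 6.52 and 11.7 CPM while replicates 1 to 3 themselves ran from 9.66 to 94.2 CPM (adjusted p = 0.257). The count of 4 became 2 with all 14 libraries in the fit, 12 with the replicate block, 11 with DESeq2 and 13 without N2102363 replicate 3. It became 1, 2 and 1 without N2102362 replicates 1, 2 and 3, and 2 and 0 without N2102363 replicates 2 and 4.

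Of the 15 largest called decreases named by rule, those not described elsewhere follow. LURP1, named for its late response to a pathogen, was at 87.8, 142 and 115 CPM and 115, 69.1 and 27.5 CPM in replicates 1 to 3 and at 8.73 and 12 CPM in replicate 4 (-3.08 ± 0.61, adjusted p = 0.0223). N2102363 replicate 3, at 27.5 CPM, was the library nearest to replicate 4. BG3, a beta-1,3-glucanase, stood at 0.873 and 1.05 CPM against 2.38 to 12.7 CPM (-2.87 ± 0.75, adjusted p = 0.0461), and the receptor-like kinase CRK39 at 0.205 and 0.35 CPM against 1.26 to 3.29 CPM (-2.91 ± 0.55, adjusted p = 0.0152). The glutathione transferase GSTF3 differed by -2.64 ± 0.40 (adjusted p = 0.00943), with a paralog of 92.2% identity over 627 bases that may share its reads. The methyltransferase PXMT1, the kinases CCR4 and AT5G38250, AT1G11210, annotated as a cotton fiber protein, AT4G18540, AT1G17665 and AT1G53100, a glycosyltransferase that overlaps another gene, made up the rest, with log2 differences from -3.42 to -2.62. Replicate 4 held 9 and 8 reads of PXMT1, 3 and 6 of CCR4, 2 and 7 of AT5G38250, and 2 and 6 of AT4G18540. For CRK39 it held 4 and 7 reads. PXMT1, CCR4, AT5G38250, AT4G18540 and CRK39 passed the low-count filter only through replicates 1 to 3, where they were high. Their calls therefore add no support.

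Indole glucosinolates and camalexin are tryptophan-derived defence compounds. Of 15 genes 5 were called lower and 1 higher (median -0.68), against 6.02% and 6.7% of all genes. MYB51, a main activator of the indole pathway, was at 136, 131 and 115 CPM and 134, 126 and 85.8 CPM in replicates 1 to 3 and at 28.2 and 45.6 CPM in replicate 4 (-1.72 ± 0.24, adjusted p = 0.00839). Replicate 4 lay below every other library, as in 1064 of the 1183 genes called lower. CYP81F2, which modifies the indole ring, stood at 12.1 and 16.7 CPM against 37.9 to 67.5 CPM (-1.77 ± 0.23, adjusted p = 0.00807). CYP83B1, an early enzyme of the pathway, differed by -1.2 ± 0.32 (adjusted p = 0.0449), and PEN2 and PEN3, the hydrolase and the transporter that act at sites of fungal entry, by -0.68 ± 0.13 (adjusted p = 0.0165) and -1.0 ± 0.16 (adjusted p = 0.0109). MYB34, a further activator of the same pathway, went the other way, at 13 and 10.9 CPM against 4.78 to 9.25 CPM (0.87 ± 0.16, adjusted p = 0.013). Without N2102363 replicate 4, 2 of the 15 were called lower and 0 higher, and with all 14 libraries in the fit 0 were called in either direction.

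Aliphatic glucosinolates, made from methionine, showed 5 of 16 genes called higher and 0 lower (median 0.60), against 6.7% and 6.02% of all genes. MYB29, an activator of that pathway, was at 13.8, 19.6 and 14.8 CPM and 16.4, 12.6 and 10.5 CPM in replicates 1 to 3 against 29.3 and 25.7 CPM (0.92 ± 0.17, adjusted p = 0.0151). IPMDH1 of the chain-elongation cycle, SOT18 and FMOGS-OX1 of the later steps and BCAT3, an aminotransferase, differed by 0.73, 0.89, 1.2 and 0.38. MYB28, the other main activator, stood inside the range of the other libraries at -0.05. The count of 5 became 0 with all 14 libraries in the fit, 10 with DESeq2, 9 with the replicate block, 2 without N2102362 replicate 3 and 1 without N2102363 replicate 4.

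Of 12 leaf senescence genes 5 were called lower and 0 higher (median -0.64), against 6.02% and 6.7% of all genes. ORE1, a NAC factor that promotes leaf ageing, was at 60.3, 59.4 and 46.8 CPM and 55.8, 53.5 and 37.7 CPM in replicates 1 to 3 and at 11.1 and 17.61 CPM in replicate 4 (-1.85 ± 0.24, adjusted p = 0.00807), while Col-0 ran from 29.1 to 63.1 CPM. A further NAC factor of leaf ageing, NAP, stood at 99.3 and 114 CPM against 143 to 219 CPM (-0.70 ± 0.15, adjusted p = 0.0225), and SAG21, a small stress protein, at 60.1 and 82.1 CPM against 109.7 to 225 CPM (-1.28 ± 0.27, adjusted p = 0.0249). JUB1, a NAC factor known to delay ageing, differed by -2.77 ± 0.65 (adjusted p = 0.0297) on 8 and 2 reads. It passed the low-count filter only through replicates 1 to 3, where it was high, so its call adds no support. WRKY6, a WRKY factor of ageing leaves, was at 26.8, 21.6 and 19 CPM and 31.3, 37.9 and 26.1 CPM against 14.8 and 19.3 CPM (-0.65 ± 0.17, adjusted p = 0.0377), and here the groups overlapped across the lines. The count of 5 became 8 with the replicate block, with DESeq2 and without N2102363 replicate 3, and it became 3 with all 14 libraries in the fit and without N2102362 replicate 3, and 2 and 1 without N2102363 replicates 2 and 4.

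**Figure D5:**
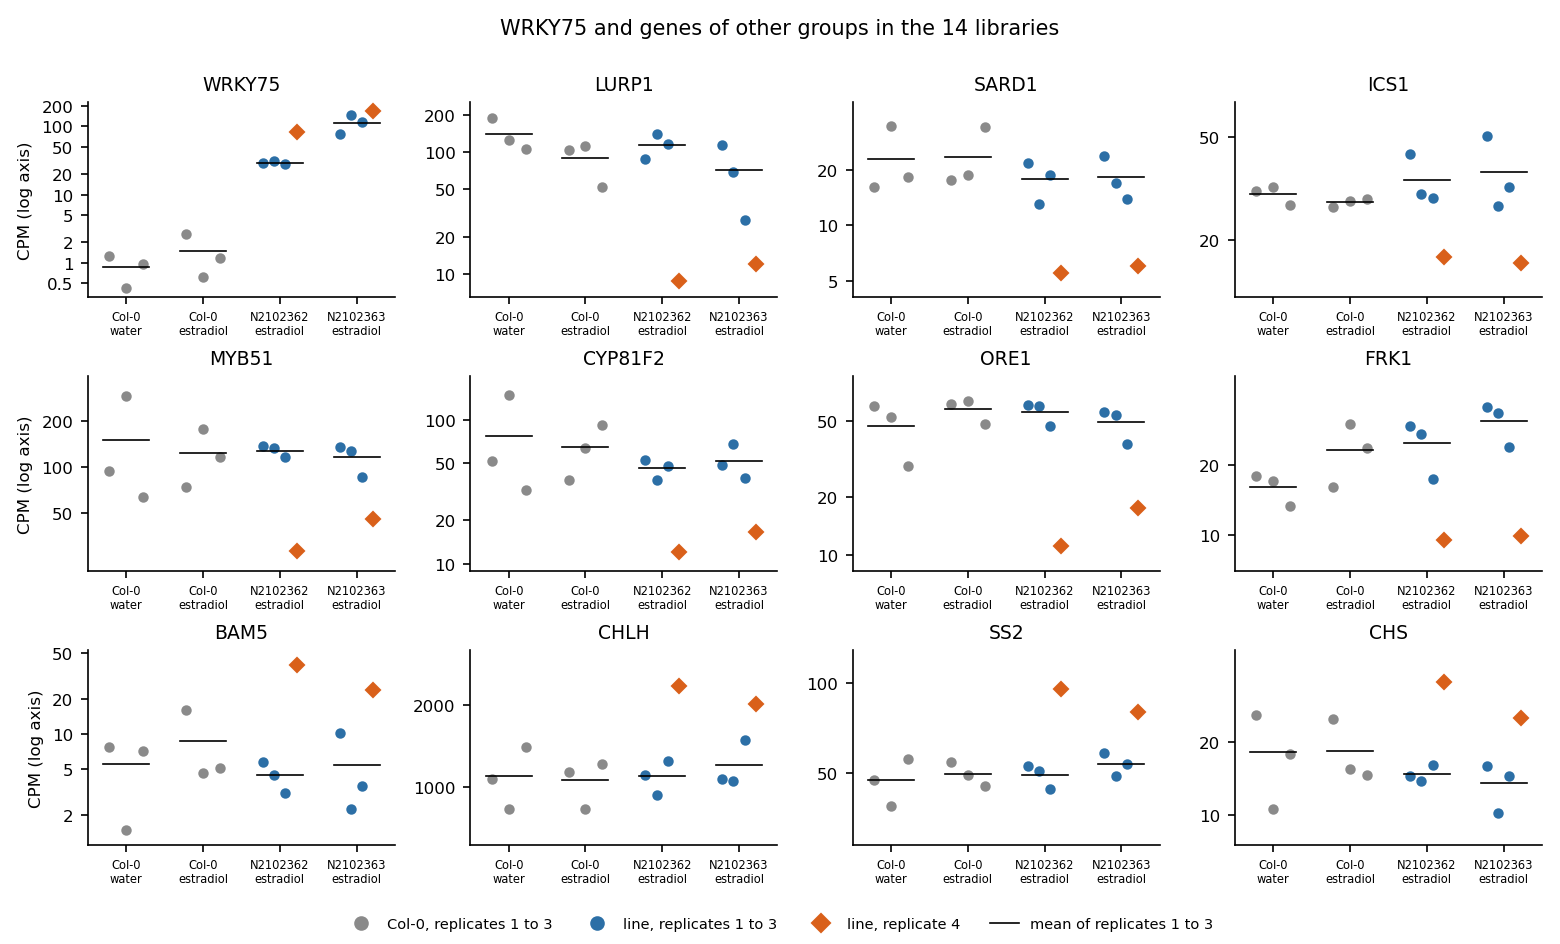
Points give the CPM (log axis, a separate scale per panel) of WRKY75, 7 genes of defence and senescence, and 4 other genes in the 14 libraries. These 4 are BAM5 of starch breakdown and SS2, CHLH and CHS of starch, chlorophyll and flavonoid synthesis. Symbols are as in the plot of clock genes. WRKY75 replicate 4 tops each line at 82 and 167 CPM, the defence and senescence genes lie below the other line libraries in replicate 4, and BAM5, CHLH, SS2 and CHS lie above them.

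The medians of the lines were furthest apart, among the lists, for rapid stress genes. Of 19 genes known to answer touch or other stresses quickly, 3 were called lower and 0 higher. Shares called over all genes tested were 6.7% higher and 6.02% lower, for this and the following lists. The median of the rapid stress genes was -0.60 over both lines, -1.10 in N2102362 and 0.06 in N2102363. The difference between lines was tested per gene only, with 0 called. FRK1, a kinase induced by bacterial flagellin, stood at 9.5 and 9.86 CPM against 17.42 to 35.3 CPM (-1.50 ± 0.24, adjusted p = 0.0116), TCH3, a calmodulin-like protein, at 479 and 589 CPM against 846 to 1149 CPM (-0.88 ± 0.16, adjusted p = 0.0142), and WRKY53 at 27.3 and 43 CPM against 61.9 to 94.9 CPM (-1.09 ± 0.22, adjusted p = 0.0197). The jasmonate list had 0 called of 25 and a median of 0.50. Its storage proteins VSP1 and VSP2 had among the largest differences without a call, VSP2 at 104 and 74.8 CPM against 5.48 to 41.8 CPM (adjusted p = 0.057) and VSP1 at 33.4 and 27.2 CPM against 2.77 to 18 CPM (adjusted p = 0.0614). Drought and cold genes had 3 of 18 called lower, which were COR15B, RD29A and ABI1 at -1.16, -0.77 and -0.78, and 0 higher. Flavonoid genes had 4 of 18 called higher and 0 lower (median 0.54): CHS, the entry enzyme, stood at 35.5 and 25.2 CPM against 10.2 to 16.2 CPM (1.09 ± 0.16, adjusted p = 0.00817), and PAL1, UGT78D2 and the bHLH factor EGL3 differed by 0.52, 0.49 and 1.05. Without N2102363 replicate 3 the touch list had 6 called lower, the drought and cold list 8 lower, the jasmonate list 4 higher and the flavonoid list 7 higher, and without N2102363 replicate 4 these counts were 0, 0, 0 and 2. The drought and cold list also had 1 called without either of N2102362 replicates 1 and 2 or N2102363 replicates 1 and 2. With the replicate block 5 of its genes were called lower and 2 higher, and 4 jasmonate genes were called higher. DESeq2 called 5 touch genes lower. With all 14 libraries in the fit 1 gene each was called in the touch, drought and cold, and flavonoid lists.

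Markers of other organs and cell types were read beside these groups, because in pooled tissue fewer cells of a type and less RNA per cell cannot be told apart. Over all genes tested 6.7% were called higher and 6.02% lower. Root markers summed to 122 CPM in each replicate 4 library against 51.6 to 90.2 CPM in the other line libraries; of 8 entries 3 passed the low-count filter and 2 were called higher, PYK10, a beta-glucosidase of ER bodies (0.83 ± 0.16, adjusted p = 0.019), and NAI2, which helps form those bodies (1.02 ± 0.18, adjusted p = 0.0143). The root hair markers EXPA7 and EXPA18 were at 0 in all line libraries. Trichome markers had 2 of 6 called higher, GL1 (1.38 ± 0.26, adjusted p = 0.0156) and TRY (1.53 ± 0.25, adjusted p = 0.0101), with a summed level of 90.5 and 92.6 CPM inside the 75.8 to 98.3 CPM of the others. Epidermis and wax markers had 2 of 6 called, CER1 (0.99 ± 0.16, adjusted p = 0.0109) and LTP1 (0.59 ± 0.10, adjusted p = 0.0119), and summed to 1290 and 1241 CPM against 890 to 1094 CPM. All 19 mitosis genes had a positive difference, with 1 called (5.26%, near the share of all genes), CYCD3;1 (0.57 ± 0.14, adjusted p = 0.0338). They summed to 205 and 172 CPM against 71.5 to 183 CPM. Vascular markers had 1 of 11 called higher (SMXL5), stomatal and meristem markers 0 of 11 and 0 of 8, and the 3 seed markers summed to at most 0.194 CPM in any line library. Without N2102363 replicate 4, 0 root, trichome and epidermis markers were called, and without N2102363 replicate 3, 6 mitosis genes were called higher (5 with the replicate block). The block also called 4 epidermis and wax markers. With all 14 libraries in the fit 1 root, 0 trichome, 1 epidermis, 0 mitosis and 0 vascular markers were called. The part of these markers in the other results was not tested.

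Col-0 offered a reference that no line library entered. In a fit of all 14 libraries with 20147 genes tested, replicate 4 of both lines differed from Col-0 with estradiol by 1018 genes called higher (5.05%) and 1131 called lower (5.61%). Replicates 1 to 3 of the same lines differed from the same Col-0 libraries by 4 genes called higher (0.0199%), which were WRKY75, SHP1, TPPI and AT1G42140, and 3 called lower (0.0149%), AT3G01345, IRT3 and CYP81D5. Both comparisons share the Col-0 libraries, and the first holds 2 line libraries and the second 6. With DESeq2 the counts were 3358 and 17 genes. Replicate 4 gave 7 calls without its N2102362 library, 70 without its N2102363 library, 301 and 545 without Col-0 estradiol replicates 1 and 2, 1108 without N2102362 replicate 3 and 1353 without Col-0 water replicate 1.

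These lists are set side by side with no test. The median log2 difference from Col-0 with estradiol was 0.89 in replicate 4 and 0.25 in replicates 1 to 3 for dawn genes, -1.11 and -0.18 for evening genes, 0.85 and 0.09 for chlorophyll synthesis, 0.50 and 0.05 for starch synthesis and -0.63 and -0.13 for senescence. LHY differed from Col-0 by 1.9 in replicate 4 (adjusted p = 0.00803) and by 0.12 in replicates 1 to 3, and PRR5 by -2.86 (adjusted p = 0.0238) and -0.21. The salicylic acid list was at -0.68 in replicate 4 and 0.28 in replicates 1 to 3, and the aliphatic glucosinolate list at 0.19 and -0.36. Jasmonate genes were at -0.20 and -0.71.

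The remaining increases named by rule held several genes of little known function. AT3G55646 was at 4.02, 1.44 and 2.39 CPM and 8.24, 3.32 and 9.51 CPM in replicates 1 to 3 and at 27.7 and 30.6 CPM in replicate 4 (2.79 ± 0.44, adjusted p = 0.012). AT1G14250, of a nucleoside phosphatase family, reached 139 and 78 CPM, but its other line libraries alone ran from 5.97 to 45.1 CPM (2.78 ± 0.65, adjusted p = 0.0346). The serine carboxypeptidase-like gene scpl10 was tighter, at 1.99, 3.11 and 2.76 CPM and 2.63, 2.61 and 3.25 CPM against 10.1 and 9.36 CPM (1.84 ± 0.17, adjusted p = 0.00771). Of 17 photoreceptor and light signalling genes 1 was called higher (5.88%, against 6.7% of all genes tested). This was ELIP2, a pigment-binding protein made under strong light, at 0.719 and 0.6 CPM against 0 to 0.219 CPM (2.57 ± 0.61, adjusted p = 0.0298). ELIP2 passed the low-count filter only through replicate 4, where it was high, so its call is no support for a difference. With a stricter low-count filter 15 genes of this list were tested and 0 called. The bHLH gene AT5G50915, the protease genes AT2G27420 and AT5G19100, the cytochrome P450 gene CYP78A8, the dirigent-like gene AT1G65870, TBL26 of the trichome birefringence-like family, SP1L4, AT4G01490, AT1G11070 and AT1G13650 had log2 differences from 1.77 to 2.73.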

How the data were processed

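Reads were counted per gene by the submitters, and the deposited files hold raw counts for 33602 TAIR10 genes per library. FastQC, TopHat2, SAMtools and HTSeq are named per the submitters' processing notes, without versions. Libraries were made with the TruSeq v2 kit, per the labels' protocols, which does not mark strand. Reads of overlapping genes therefore cannot be told apart, which touches LNK2, ELF3, CHL27, APL1, WRKY53, IPMDH1, CHS, PYK10 and AT1G53100. The labels call the libraries biological replicates.

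Genes were kept by filterByExpr (minimum count 10). They were fitted with edgeR 4.0.16 in R 4.3.3 (TMM factors, robust quasi-likelihood test, line as covariate, 8 libraries, 5 residual degrees of freedom, Benjamini-Hochberg adjustment). DESeq2 1.42.0 and the other settings of the closing section were alternatives. CPM values were computed from the deposited counts. The fit was tested on simulated data with independent libraries and a common dispersion. The simulation held no spread shared by replicate number, so it cannot show how far the calls hold in this design. The libraries were chosen by label, and the gene lists (39 lists) with earlier results of these data known. Named by rule were up to 15 called genes per direction with the largest change, a mean of at least 1 CPM and no overlap between groups, and up to 6 called genes per list. List members that were not called, and LUX and CHE, were named after their values were seen.

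Deviations of same-numbered replicates from their line means had correlations across genes of 0.394, 0.407, 0.22 and 0.732 for replicates 1 to 4, and of 0.202, 0.219 and 0.39 among replicates 1 to 3 alone. Pairs with different numbers reached 0.246 and 0.0413 at most. Every same-numbered pair was over 0.1, so the replicate number was used as a block in an alternative fit. Motifs were searched in the TAIR10.1 genome, where 18638 of 32835 loci of the TAIR10 files share a start or end with RefSeq and 0 run past a chromosome's end.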

Additional observations from a re-analysis of the deposited data

Results flagged for a closer look

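In N2102362 the WRKY75 level of replicate 4, 82 CPM, stood apart from the other 3 libraries of the line by Dixon's criterion for a single distant value. Among the other named genes, replicate 4 stood apart in the same way for 28 in N2102362 and for 12 in N2102363; these genes were named because replicate 4 differed, so the counts describe them and support nothing. Over all 19657 genes tested the share was 4.41% (866 genes) for N2102362 replicate 4 and 0.483% to 1.13% for the other replicates of that line. In N2102363 it was 1.63% (320 genes) for replicate 4 and 0.86% to 1.37% for the others. Chance alone would set apart some library, whichever it is, in about 1 in 20 groups. The shares above are each for 1 given replicate, for which the chance rate is lower.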

How the results depend on the processing

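The 1318 higher and 1183 lower genes became 2081 and 1707 with the replicate block, 410 and 504 with all 14 libraries in the fit, 118 and 183 within N2102362 alone, and 0 and 0 within N2102363 alone (1924 at an unadjusted p under 0.05 in edgeR) and with the lines summed by replicate number, a setting chosen after seeing the data (4261 at that p). Leaving out 1 library gave 0 to 1981 higher and 0 to 1879 lower genes. The WRKY75 difference was 1.04 with no low-count filter, 1.02 with all 14 libraries, 0.58 within N2102363 and 0.81 with the lines summed, each without a call, and 0.57 to 1.47 when 1 library was left out. The 2149 genes of replicate 4 against Col-0 with estradiol became 3727 against Col-0 with water, 3358 with DESeq2 and 7 to 2592 when 1 library was left out, and the 7 genes of replicates 1 to 3 became 17 with DESeq2. The settings within 1 line and with lines summed hold fewer libraries; for the others the cause was not tested. Of the 120 named genes besides WRKY75, 0 reversed in any setting run, and all 120 lost the call without some library. With the replicate block all 120 kept it, with all 14 libraries 57 did, and with no low-count filter 111 did. Genes at a few reads in replicate 4, such as ELF4 and COR28, have fold changes limited by depth.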

Other observations

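Several genes outside the groups described above were also called in edgeR's quasi-likelihood test. Over all genes tested 6.7% were called higher and 6.02% lower. In nitrate response 2 of 15 genes were called higher, the repressor LBD39 and the plastid glutamine synthetase GLN2, with log2 differences of 0.99 and 0.69. None of the 15 was called without N2102362 replicate 3 or 4 or N2102363 replicate 2 or 4, 1 was without N2102363 replicate 1, and 5 were called higher without N2102363 replicate 3 and with the replicate block. With all 14 libraries in the fit 0 were called, and with DESeq2 4 were. Among 13 iron and copper genes the iron superoxide dismutase FSD1 was called higher (1.05), and the copper/zinc enzyme CSD1 (-0.74), which overlaps another gene, and the ferric reductase FRO3 (-0.33) lower. None of the 3 was called without N2102362 replicate 3 or 4 or N2102363 replicate 1, 2 or 4. FSD1 was also not called without N2102362 replicate 2 or N2102363 replicate 3, with no low-count filter or with all 14 libraries in the fit. Among 12 flowering genes the MADS-box factors AGL24 and AG were called higher (0.71 and 1.1), with AG at 1.18 and 1.95 CPM against 0.421 to 0.964 CPM. The call of AG was lost without N2102362 replicate 3 or 4 or N2102363 replicate 2 or 4, and that of AGL24 without N2102362 replicate 4. Of 18 ethylene genes 1 was called lower, the kinase CTR1 (-0.73), a share of 5.56% and near that of all genes. That count of 1 became 5 with DESeq2 and without N2102363 replicate 3, 6 with the replicate block, 2 without N2102362 replicate 1 or 2, and 0 with all 14 libraries in the fit, without N2102362 replicate 4 or without N2102363 replicate 2 or 4. Of 15 auxin genes 0 were called.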
